A study of Rattus norvegicus with 100 samples.

Results

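The comparison described here is the response of the rat pituitary gland to ethinylestradiol (EE), a synthetic estrogen, at 4 h. The arrays were chosen by their titles: 3 labelled EE, 4 h and pituitary (replicates 20, 21 and 23) and 3 labelled control, 4 h and pituitary (replicates 16, 17 and 18), 6 of the 100 arrays of the series. All came from immature female rats in a uterotrophic assay, a test in which estrogenic activity is read from growth of the uterus. The labels name no allele and no other agent for either group, and no dose, route, dosing schedule or vehicle. Nothing in them ties an array to its own animal, so a p-value here covers the spread among these samples only, and that spread may be technical. Other arrays of the series covered pituitary at 8, 24, 48 and 72 h and uterus at times that include 4 h, each with its own control group.

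The anterior pituitary holds several endocrine cell types, among them gonadotrophs (luteinizing and follicle-stimulating hormone), lactotrophs (prolactin), somatotrophs (growth hormone), thyrotrophs and corticotrophs. Estrogen acts there through nuclear estrogen receptors, changes transcription within hours, and is known for its slow effects on lactotroph growth and for feedback on the gonadotropins. Genes that respond in the first hours commonly include regulators of transcription and the machinery that builds ribosomes, while hormone messages, which are abundant and long-lived, tend to move later. Because whole glands were measured, fewer cells of a type and less RNA per cell cannot be told apart.

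The EE arrays held 9485 to 10042 probe sets with a value and the control arrays 9455 to 10035, of 15923 on the array, and median intensity was 104 to 109 on EE arrays and 105 to 110 on control arrays. Blank share, median intensity and the 3′ minus 5′ differences of Actb and Gapdh were compared between the groups by an exact permutation test, two-sided, and gave p = 0.3 to 1. The smallest p that 3 arrays against 3 allow is 0.1, so this test could not have reached 0.05 and does not show that the groups were alike in quality. The tissue label was borne out by its defining hormone genes: Prl, Gh1, Cga, Lhb and Tshb had intensities of 2451 or more on each of the 6 arrays. Pomc, Avp and Oxt, which mark corticotrophs and the neural lobe, were blank on all 6 arrays, and the reason for blanks is not given in the sources used here.

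At 4 h, 72 genes were higher and 29 were lower in EE pituitaries than in control pituitaries, of 6784 genes tested (1.49% called, 1.06% higher and 0.427% lower; limma, Benjamini-Hochberg adjusted p under 0.05). The median size was 0.49 on the log2 scale among genes that rose and 0.45 among those that fell, against 0.08 over all genes tested, and 4 rises and 1 fall reached 2-fold on that scale. Differences are log2(intensity + 30.4), which understates the change of dim genes, and by the ratio of mean intensities 9 rises and 3 falls reached 2-fold. EE and control arrays did not overlap for 100 of the 101 genes (14.6% of all genes tested), which the calls, made on the same arrays, nearly fix. For 66 of the 101 (2.46% of all genes tested) the EE arrays also lay outside every value on control arrays of the other times; 59 of the 66 had a value on all 12 of those arrays. These shares describe the called genes and are no further test of them.

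The count depended on single arrays and on the estimate of spread, which came from all 30 pituitary arrays. It was 54 genes without control replicate 16, 55 without EE replicate 23 and 66 without control replicate 17, and 26 when only the 4 h groups were in the fit. Across every omission of 1 array and every other setting tried, 15 genes passed throughout: Ass1, Camk2g, Dapk1, Fut8, Gart, Hif1a, Litaf, Metap1, Mycn, Nop56, Pou1f1, Slc7a7, Tiparp, Tmem50b and Ttc8.

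**Figure D1:**
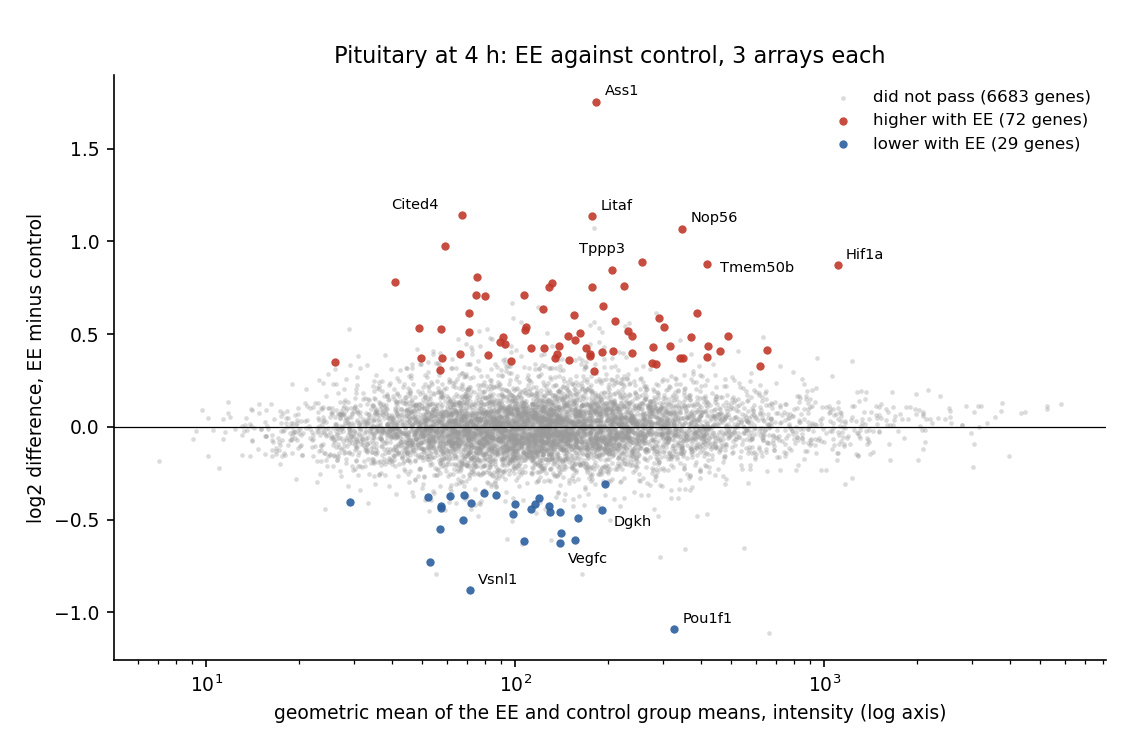
Each point is a gene tested in pituitary at 4 h; the x axis is the geometric mean of the EE and control group means (intensity, log axis) and the y axis the log2 difference, EE minus control (3 arrays each). Red points are the 72 genes higher with EE and blue points the 29 lower; Ass1 at 1.75 and Pou1f1 at -1.09 lie at the ends of the called genes.

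The largest rise was that of Ass1, argininosuccinate synthase, the enzyme that commits citrulline to arginine synthesis. Its intensities were 382, 391 and 345 on the EE arrays, against 85.8, 109 and 74.5 on the control arrays. Every EE array lay far above every control array, and the log2 difference was 1.75 ± 0.11 (SE, n = 3 each, adjusted p = 8.29e-11). Nop56, a core protein of the box C/D particles that methylate ribosomal RNA, read 522, 500 and 532 in EE pituitaries, against 251, 252 and 194 in control pituitaries. These groups were far apart relative to their spread (1.07 ± 0.11, adjusted p = 9.48e-07). Litaf, an endosomal membrane protein first described as a regulator of tumour necrosis factor, read 298, 252 and 295 with EE, against 97.5, 120 and 117 in controls. No EE array came near the control arrays, and the difference was 1.14 ± 0.15 (adjusted p = 4.31e-05).

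Cited4, a coactivator that binds the histone acetyltransferases CBP and p300, read 155, 92.8 and 115 in EE pituitaries, against 32.5, 42.5 and 37.1 in control pituitaries. The EE arrays varied more than the control arrays but did not overlap them (1.14 ± 0.18, adjusted p = 0.000839). Hif1a, the oxygen-regulated subunit of hypoxia-inducible factor, read 1406, 1713 and 1411 with EE, against 791, 886 and 749 in controls. All EE arrays were high, and the difference of 0.87 ± 0.09 passed (adjusted p = 1.51e-06). Mycn, a Myc-family transcription factor that drives growth and ribosome production, read 187, 156 and 209 with EE, against 82.3, 92.9 and 108 in controls (0.78 ± 0.12, adjusted p = 0.000373). Tiparp, a mono-ADP-ribosyltransferase known as a target of the aryl hydrocarbon receptor, rose by 0.76 ± 0.12, with 206 to 268 in EE pituitaries and 112 to 152 in control pituitaries.

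The remaining genes among the 12 largest rises were of mixed function. Tppp3, a tubulin-binding protein, read 418, 260 and 421 with EE, against 174, 180 and 184 in controls, so that 1 EE array was well below the other 2 (0.89 ± 0.16, adjusted p = 0.00284). It did not pass with blanks set to the 10th percentile (adjusted p = 0.143) or when the fit held the 4 h groups alone (0.0517). Tmem50b, a small membrane protein, rose by 0.88 ± 0.13 and the centrosomal protein Cep44 by 0.81 ± 0.12. Camk2g, the gamma chain of calcium/calmodulin-dependent kinase II, read 255 to 312 in EE pituitaries and 137 to 161 in control pituitaries (0.85 ± 0.14, adjusted p = 0.000462). Spetex2l2 rose by 0.76 ± 0.19 (adjusted p = 0.0326) and no longer passed without any one of EE replicates 20 and 21 and control replicates 16 and 17 (adjusted p up to 0.172). Dimmer genes were kept out of this ranking by a limit on intensity; among them, chosen after its values were seen, Pdlim3, a muscle-type actin-binding protein, read 82.9, 104 and 110 with EE, against 26.3, 43.2 and 37 in controls (0.97 ± 0.13, adjusted p = 6.75e-05).

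**Figure D2:**
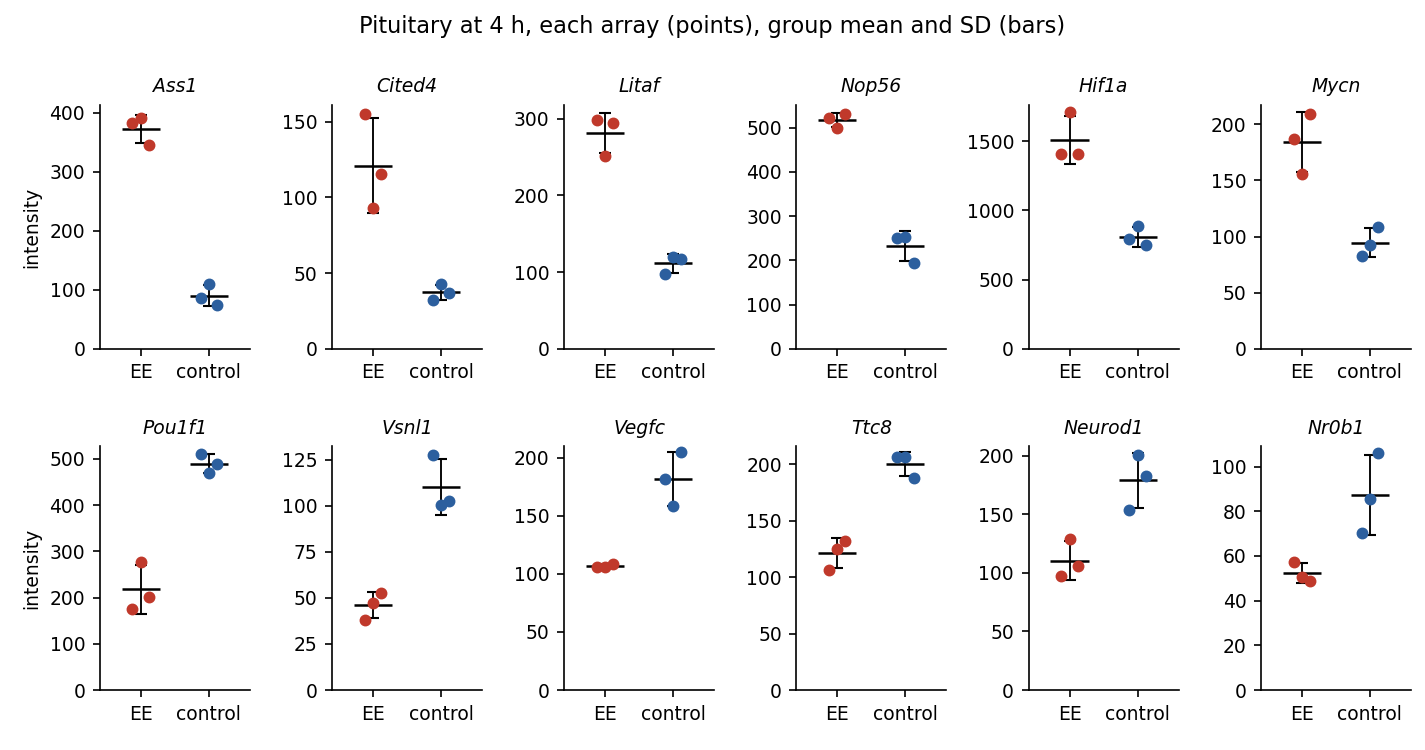
Intensity on each array (y axes, linear from 0) for 6 genes that rose (top) and 6 that fell (bottom), with EE left of control; black bars are the group mean and its SD (n = 3). No gene shown has an EE array inside the range of its 4 h control arrays. Ass1 has 345 to 391 with EE against 74.5 to 109, and Pou1f1 has 175 to 276 against 469 to 510.

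The largest fall was that of Pou1f1, also called Pit-1, the homeodomain factor that drives the growth hormone, prolactin and thyrotropin beta genes and maintains the cells that make them. Its intensities were 175, 276 and 202 in EE pituitaries, against 510, 469 and 490 in control pituitaries. The highest EE array was well below the lowest control array, and the log2 difference was -1.09 ± 0.13 (adjusted p = 6.85e-06). A second probe set of Pou1f1 read 199, 279 and 196 with EE, against 455, 436 and 364 in controls, and also passed (-0.82 ± 0.13, adjusted p = 0.00031). Its target genes Prl, Gh1 and Tshb did not pass at this time, with values given with the hormone genes.

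Vsnl1, a neuronal calcium sensor, read 38.3, 47.4 and 52.6 in EE pituitaries, against 128, 101 and 103 in control pituitaries. Every EE array was about as low as the others, at less than 53, and the difference was -0.88 ± 0.13 (adjusted p = 0.000228), while its dimmer second probe set did not pass (-0.40 ± 0.12, adjusted p = 0.125). Neurod1, a helix-loop-helix factor that activates the Pomc gene in corticotrophs, read 97.1, 129 and 106 with EE, against 154, 201 and 183 in controls (-0.57 ± 0.12, adjusted p = 0.0075, and 0.0669 without control replicate 17). It also did not pass when the fit held the 4 h groups alone (adjusted p = 0.093). Its EE replicate 21 lay within the range of the control arrays of the other times (106 to 177). Control replicates 17 and 18 lay above that range. Vegfc, a growth factor of lymphatic vessels, read 106, 106 and 109 with EE, against 182, 159 and 205 in controls (-0.62 ± 0.14, adjusted p = 0.0126). It did not pass without control replicate 16 or without control replicate 18 (adjusted p = 0.0559 and 0.0911).

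Other falls were smaller. Ttc8, a subunit of the BBSome that carries cargo to cilia, read 106, 125 and 132 in EE pituitaries, against 206, 206 and 188 in control pituitaries (-0.61 ± 0.08, adjusted p = 4.91e-05). Cc2d2a, a protein of the ciliary transition zone, read 81.9 to 100 with EE and 126 to 152 in controls (-0.44 ± 0.10), but did not pass without control replicate 16 (adjusted p = 0.0914) or EE replicate 21 (0.0759). Rab38, a small GTPase of lysosome-related organelles, fell by 0.62, Rcan2, a calcineurin regulator, by 0.49, and Aopep, an aminopeptidase, by 0.47 on the log2 scale. None of these 3 passed when the fit held the 4 h groups alone (adjusted p = 0.0627, 0.0517 and 0.112 for Rab38, Rcan2 and Aopep), and Aopep did not pass with blanks set to the 10th percentile (0.298). Nap1l3, of the nucleosome assembly protein family, fell by 0.46 and did not pass without EE replicate 23 (adjusted p = 0.072). Dpy19l1 fell by 0.46 and did not pass without any one of 5 arrays, EE replicate 20 being the exception (adjusted p up to 0.21). Dgkh, a diacylglycerol kinase, fell by 0.45 and did not pass without EE replicate 20 or 23 or without control replicate 16 or 17 (adjusted p up to 0.195). The control arrays of the other times spanned 85.2 to 148 for Rab38, 91.5 to 164 for Cc2d2a and 126 to 188 for Dpy19l1. In each of these genes, not every EE array lay below that span.

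Of 28 tested genes for ribosome assembly, 6 rose and 0 fell in EE pituitaries, against 1.06% of all genes tested that were higher, and 22 did not pass. A difference above 0 was found in 26 of the 28, against 47.3% of all genes tested, and the list median was 0.29, against -0.01 over all genes tested. The 6 were Nop56, the methyltransferase fibrillarin (Fbl), the H/ACA particle proteins Gar1 and Nhp2, the nucleolar GTPase nucleostemin (Gnl3) and the nucleolar chaperone Nolc1. Fbl read 173, 176 and 196 with EE, against 130, 121 and 111 in controls (0.49 ± 0.09, adjusted p = 0.00176), and Gar1 read 76.6, 101 and 97.7 with EE, against 60.9, 55.9 and 48.1 in controls (0.51 ± 0.10, adjusted p = 0.00483). Neither gene had an EE array inside its control range. Gnl3 read 251, 325 and 279 with EE, against 180, 194 and 193 in controls (0.52 ± 0.11, adjusted p = 0.00762), and did not pass without control replicate 16 (adjusted p = 0.0553) or EE replicate 21 (0.0669). Members that did not pass included Ddx10 at 0.48 (adjusted p = 0.061), Nob1 at 0.44 and Rrs1 at 0.40, and the 2 members below 0 were Rrp1 at -0.11 and Noc2l at -0.06. Nhp2 passed in 4 of the 6 fits that left out 1 array at 4 h and Nolc1 in 0 of them. The count of 6 was 3 without control replicate 16, and 1 when only the 4 h groups were in the fit.

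In 5 related lists of protein synthesis, folding and breakdown 0 genes passed; for comparison, 47.3% of all genes tested were above 0 and 9.85% had an unadjusted p under 0.05. All 17 tested transfer RNA synthetases were above 0, with a median of 0.13 and a range of 0.03 (Wars1) to 0.34 (Yars1), and 0 passed in limma (5 at an unadjusted p under 0.05). Of 42 cytosolic ribosomal proteins 39 were above 0, with a median of 0.08 and 0 passing (1 unadjusted). Of 33 proteasome subunits 30 were above 0, with a median of 0.07 and 0 passing (2 unadjusted), and of 23 cytosolic chaperones 17 were above 0, with a median of 0.13 and 0 passing (7 unadjusted). The endoplasmic reticulum chaperones lay on the other side, with 4 of 23 above 0, a median of -0.09 and 0 passing (3 unadjusted). In the amino acid list 1 of 13 rose, against 1.06% of all genes tested: Got1, the cytosolic aspartate aminotransferase, read 272, 267 and 214 with EE, against 147, 143 and 153 in controls (0.65 ± 0.15, adjusted p = 0.0157), and did not pass without any one of EE replicates 20 and 21 and control replicates 16 and 17 (adjusted p up to 0.0724). Asns, at 0.02, and Psat1, at -0.28, of the same list did not pass. Outside the lists and chosen after their values were seen, Gart, a trifunctional enzyme of purine synthesis (0.64 ± 0.09), Metap1, which removes the first methionine of new proteins (0.54 ± 0.08), Abce1, a ribosome recycling factor (0.40 ± 0.08), and the translation helicase Eif4a1 (0.41 ± 0.10) also rose. Eif4a1 was the called gene whose groups overlapped, and it passed in 2 of the 6 fits that left out 1 array.

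**Figure D3:**
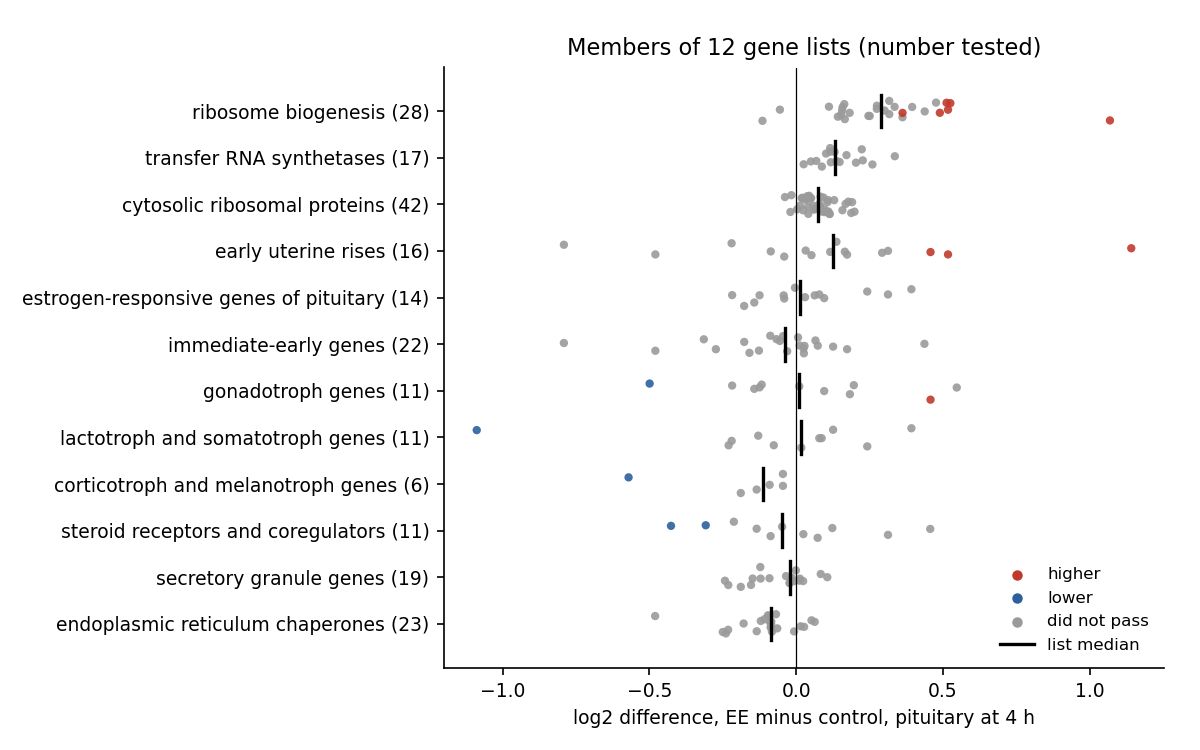
Points are tested members of 12 lists (number tested in brackets), placed by log2 difference, EE minus control, in pituitary at 4 h (x axis) and spread vertically for legibility; black bars are list medians, red and blue points genes that rose or fell. Ribosome biogenesis has its median at 0.29 with 26 of 28 members above 0; the immediate-early list has its median at -0.04.

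Promoter windows of the genes that passed were searched for short motifs, on both strands, in RefSeq sequence of build GRCr8 (250 bases before to 50 after the gene's start); 87 of the 101 genes had a window. A gene can have more than 1 window and was counted if any of its windows held the motif. All shares are therefore of genes with a window. The full estrogen response element (GGTCA, any 3 bases, then TGACC) was in 0 of 63 genes that rose and 0 of 24 that fell. It was in 0.0175% of all genes tested. Its half-site AGGTCA was in 11.1% of genes that rose and 16.7% of genes that fell, against 12.5% of all genes tested. The AP-1 site TGANTCA was in 1.59% and 4.17%, against 5.24%, and the cyclic AMP response element TGACGTCA in 3.17% and 0%, against 3.24%. The E-box CACGTG, the letters that Myc-family proteins are known to bind, was added after the values were seen. It was in 15 of 63 genes that rose (23.8%) and 2 of 24 that fell (8.33%). The share was 10.1% among all genes tested and 7.08% among all genes with a window. The half-site can overlap a full element, and the E-box reads the same on both strands. The stretches below show it, in capitals, in 2 genes that rose and 1 that fell, and the half-site, in capitals, in Nr0b1, which fell; each is written in the direction of its gene, and a match shows the letters only.
Gnl3, chr16:6219783-6219834, minus strand: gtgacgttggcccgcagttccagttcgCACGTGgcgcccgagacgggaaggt
Hif1a, chr6:98359648-98359701, plus strand: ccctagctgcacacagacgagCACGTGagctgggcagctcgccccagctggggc
Dgkh, chr15:60559865-60559924, minus strand: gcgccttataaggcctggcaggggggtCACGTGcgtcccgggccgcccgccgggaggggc
Nr0b1, chrX:54707486-54707545, plus strand: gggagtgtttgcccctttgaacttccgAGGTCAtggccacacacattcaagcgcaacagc

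The hormone genes themselves did not pass at 4 h. Prl, prolactin, read 3471, 5914 and 4500 in EE pituitaries, against 4489, 4058 and 4301 in control pituitaries, with a difference of 0.08 (95% interval -0.22 to 0.38). The EE arrays spanned the control arrays. Gh1, growth hormone, differed by 0.13 (-0.10 to 0.35), Cga, the shared gonadotropin and thyrotropin alpha chain, by 0.10 (-0.12 to 0.32) and Tshb, the thyrotropin beta chain, by -0.09 (-0.31 to 0.13). Lhb, the luteinizing hormone beta chain, read 3149, 2451 and 2767 with EE, against 2877, 2899 and 4048 in controls (-0.22, interval -0.56 to 0.13). Fshb, the follicle-stimulating hormone beta chain, read 491, 519 and 408 with EE, against 579, 1280 and 181 in controls. Its control arrays were spread so widely that the interval ran from -1.03 to 0.74. Gnrhr, the gonadotropin-releasing hormone receptor, differed by -0.12 (-0.48 to 0.23).

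Pgr, the progesterone receptor and a classical estrogen target, read 51.1, 41.4 and 51.8 in EE pituitaries, against 34.9, 29.7 and 33.6 in control pituitaries. The groups did not overlap, and the EE arrays lay above all 15 control arrays of the 5 times, but the difference of 0.31 ± 0.10 did not pass (adjusted p = 0.107, limma). Of 14 tested genes known to respond to estrogen in pituitary, 0 passed (1.49% of all genes tested), 2 had an unadjusted p under 0.05 (9.85%), 7 were above 0 (47.3%) and the median was 0.01. With 14 genes these counts are near the shares over all genes. Esr1, estrogen receptor alpha, and Gal, galanin, were not tested, since a test needed at least 2 values in each group at 4 h: Esr1 had a value on 1 EE array and 2 control arrays, and Gal on 2 EE arrays and 1 control array.

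Of 22 immediate-early genes, 0 passed (1.49% of all genes tested), 2 had an unadjusted p under 0.05 (9.85%) and 10 were above 0 (47.3%), with a median of -0.04. These counts too are near the shares over all genes. Nr4a1, an orphan nuclear receptor, read 76.1, 114 and 165 in EE pituitaries, against 306, 224 and 151 in control pituitaries. EE replicate 23 overlapped the lowest control array, and the difference of -0.79 had an interval of -1.59 to 0.01. Fos read 32.1, 53.1 and 93.4 with EE, against 142, 98.7 and 48.2 in controls (-0.48, -1.27 to 0.31), and Egr1 differed by -0.27 (-1.03 to 0.48). The standard errors of these 3 genes were 0.37 to 0.39, against a median of 0.10 over all genes tested.

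Signalling genes of the gonadotroph and of the activin pathway included rises and falls. Smad3, which carries activin and transforming growth factor beta signals to the nucleus, read 113, 110 and 111 in EE pituitaries, against 51.6, 61.4 and 57.4 in control pituitaries. The EE arrays were almost equal and lay well above every control array (0.70 ± 0.11, adjusted p = 0.000221). Inhbb, the inhibin and activin beta B chain made by gonadotrophs, read 121, 115 and 93.7 with EE, against 58.6, 71.9 and 85.8 in controls. The gap between groups was narrow (0.46 ± 0.11, adjusted p = 0.0299). Inhbb did not pass without any one of EE replicates 20 and 21 and control replicates 16 and 17 (adjusted p up to 0.196). It also did not pass when the fit held the 4 h groups alone (0.194). Its EE replicates 21 and 23 lay within the range of the control arrays of the other times (73.3 to 116). Control replicates 16 and 17 lay below that range. Of 22 genes in the activin, inhibin and transforming growth factor beta list, 2 passed, Smad3 and Inhbb, against 1.06% higher of all genes tested. The list median was -0.02, and Smad4 at 0.32 (adjusted p = 0.0608) and Smad1 at 0.27 (0.061) did not pass. Nr0b1 (Dax1), a repressor of steroidogenic factor 1 in gonadotrophs, read 57.5, 50.7 and 48.9 with EE, against 70.5, 85.6 and 106 in controls (-0.50 ± 0.11, adjusted p = 0.0146). It did not pass without control replicate 18 (adjusted p = 0.132) or EE replicate 21 or 23 (0.0566 and 0.0854), or with the 4 h groups alone (0.131). Its EE replicate 20 lay within the range of the control arrays of the other times (55.7 to 114).

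Of 34 genes of gonadotropin-releasing hormone and cyclic AMP signalling, 1 rose, against 1.06% of all genes tested: Prkcb, protein kinase C beta, read 311, 285 and 268 in EE pituitaries, against 211, 208 and 171 in control pituitaries (0.49 ± 0.09, adjusted p = 0.00287). The list median was 0.01, and the regulators of G protein signalling Rgs2 at -0.50 and Rgs4 at -0.47 did not pass (adjusted p = 0.129 and 0.133). Of 19 voltage-gated channel genes 1 fell, against 0.427% of all genes tested: the sodium channel Scn9a, with 86, 81.5 and 80.5 with EE, against 122, 115 and 123 in controls (-0.41 ± 0.09, adjusted p = 0.00762). Its EE arrays lay within the range of the 12 control arrays of the other times (79.4 to 116). The 4 h control arrays lay near or above the top of that range. Scn9a did not pass when the fit held the 4 h groups alone (adjusted p = 0.0848). Of 11 steroid receptors and coregulators 2 fell and 0 rose, against 0.427% lower and 1.06% higher of all genes tested, and 5 had an unadjusted p under 0.05, against 9.85%. Nr3c2, the mineralocorticoid receptor, read 46.9, 47.7 and 42.9 with EE, against 76.7, 81.4 and 59.4 in controls (-0.43 ± 0.10, adjusted p = 0.0159). Ncoa1, steroid receptor coactivator 1, read 170, 174 and 173 with EE, against 227, 229 and 207 in controls (-0.31 ± 0.07, adjusted p = 0.0144). Neither gene's groups overlapped, but each lost its call without control replicate 16 or 17 or EE replicate 23 (adjusted p up to 0.127 for Nr3c2 and 0.0903 for Ncoa1).

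Genes that passed were found in 3 of the cell type lists, to be read against 1.49% of all genes tested. In the lactotroph and somatotroph list 1 of 11 passed (Pou1f1), in the gonadotroph list 2 of 11 (Inhbb higher, Nr0b1 lower) and in the corticotroph and melanotroph list 1 of 6 (Neurod1). The summed intensity of the corticotroph and melanotroph genes with a value on all 6 arrays was 640 to 743 in EE pituitaries and 783 to 889 in control pituitaries, and Neurod1 is part of that sum. The others in it, Pcsk2, Nr3c1, Pitx1, Tbx19 and Avpr1b, were between -0.19 and -0.04 and did not pass. Summed without Neurod1, these genes overlapped between EE and control arrays. The summed ranges overlapped for gonadotroph (12272 to 13399 with EE, 12108 to 14054 in controls), lactotroph and somatotroph, thyrotroph, folliculostellate, endothelial, blood, macrophage and neural lobe genes. Each sum is of raw intensities, so the brightest genes weigh most, such as Cga and Lhb for gonadotrophs and Prl and Gh1 for lactotrophs and somatotrophs. An overlap of sums therefore says little about the dimmer markers. None of the 9 macrophage genes was above 0 (47.3% of all genes tested, list median -0.16), and 0 passed (0 at an unadjusted p under 0.05, against 9.85%). Each of the 9 had its lowest value of the 6 arrays on EE replicate 21, so their direction rests largely on 1 array. Lyz2, for example, read 717, 319 and 629 with EE, against 572, 703 and 475 in controls. All 7 lymphocyte genes on the array were blank. The part of cell composition in the called genes was not tested. Of the early uterine estrogen responses, a list drawn up with the uterus results of the series known, 3 of 16 rises were higher in pituitary (Cited4, Gnl3 and Inhbb; 1.06% of all genes tested) and 0 of 9 falls (2 at an unadjusted p under 0.05).

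Some genes had values on one group only and so have no fold. There were 15 with values on all EE arrays and on no control array at 4 h, and 12 the other way round, of 9030 genes with a value on any array of the series. S100g, calbindin-D9k, a calcium-binding protein known as an estrogen-induced gene in rat uterus and pituitary, read 92.2, 85.0 and 98.9 on the EE arrays and was blank on the 3 control arrays. It was also blank on the 12 control arrays of the other times and had a value on all 12 other EE arrays. Myc, the growth-promoting transcription factor, read 77.1, 58.4 and 66.7 with EE, and it had values on 12 of 12 other EE arrays and on 5 of 12 other control arrays. Mybbp1a, a nucleolar Myb-binding protein, read 192, 178 and 171 with EE, but it had values on 2 of 12 other EE arrays and 1 of 12 other control arrays. Bard1, the partner of Brca1, read 86.6, 73.6 and 108 in controls, and had values on all 12 other control arrays and 7 of 12 other EE arrays. These genes were chosen after their values were seen.

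The genes that passed at 4 h were followed at the later times. Of the 72 genes that rose at 4 h, 33 were also higher at 8 h, against a background of 1.75% of genes higher at that time, which is 45.8% of the 4 h list and 28.4% of the 116 genes higher at 8 h. At 24 h and at 48 h 0 of them passed (4 and 12 at an unadjusted p under 0.05), against 0.0294% and 0.191% of all genes higher, and at 72 h 10 were higher (background 1.75%) and 1, Ass1, was lower. The median difference of the 72 was 0.49 at 4 h, 0.34 at 8 h, 0.0043 at 24 h, 0.08 at 48 h and 0.12 at 72 h. Of the 29 genes that fell at 4 h, 6 were lower at 8 h (background 1.84%), 0 at 24 h (4 unadjusted; background 0.0736%), 1 at 48 h (0.103%) and 3 at 72 h (0.911%), with medians of -0.45, -0.25, -0.05, -0.06 and -0.08 over the 5 times. The count of 33 was 21 without control replicate 16 or without EE replicate 21 at 4 h. When only the groups compared were in the fit, 6 genes were higher at both times and 0 were lower at both. Each time had its own control arrays. The genes were picked by their 4 h values, which by itself makes their medians larger at 4 h than at other times. By a direct test of the difference, the 8 h effect differed from the 4 h effect for 1 of 71 genes that rose and 1 of 29 that fell.

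Ass1 changed direction over the course. It read 382, 391 and 345 in EE pituitaries at 4 h and 281, 255 and 225 at 8 h, against controls of 74.5 to 109 and 95.7 to 107. At 24 h the EE arrays read 44.7, 46.8 and 67.6, against 81.4, 87.8 and 62.9 in controls, and at 72 h 49.1, 56.2 and 65.3, against 86.2, 104 and 112. The EE effect was 1.12 at 8 h (adjusted p = 1.79e-06), -0.37 at 24 h and -0.35 at 48 h (neither passed), and -0.59 at 72 h (adjusted p = 0.00427). Pou1f1 read 449, 410 and 445 with EE at 8 h, against 700, 660 and 653 in controls (-0.59, adjusted p = 0.00924), and its groups overlapped at 24, 48 and 72 h. Nop56 was higher by 0.85 at 8 h (adjusted p = 4.55e-05) and by 0.43 at 72 h (0.0301), and Hif1a by 0.69 at 8 h (7.56e-05) and by 0.28 at 72 h, where it did not pass (0.111). Cep44 and Mycn were higher at 4, 8 and 72 h, and Vsnl1 lower at those times. Pgr, which missed the threshold at 4 h, passed at 8 h (0.66, adjusted p = 0.000253) and at 72 h (0.56, 0.0011).

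The ribosome biogenesis list had a median of 0.22 at 8 h with 5 of 28 members higher (1.75% of all genes at that time), and medians of -0.04, 0.07 and 0.03 at 24, 48 and 72 h with 0, 0 and 1 higher. A direct test of the 8 h effect minus the 4 h effect passed for 3 of 6519 genes (0.046%). Dapk1, a death-associated kinase, was higher at 4 h (0.51) and at -0.16 at 8 h, a difference of -0.67 ± 0.12 (adjusted p = 0.0258). Scn9a was lower at 4 h (-0.41) and at 0.22 at 8 h, a difference of 0.64 ± 0.12 (adjusted p = 0.0368). The EE arrays of Scn9a at 4 h lay within the range of the control arrays of the other times. Wipi2, an autophagy protein, had 0.44 at 4 h, which did not pass, and -0.56 at 8 h (difference -0.997 ± 0.167, adjusted p = 0.0168). These 3 calls rested on few arrays: the number of calls was 0 without control replicate 16 or EE replicate 21 at 4 h, 0 without EE replicate 34 at 8 h and 9 without EE replicate 33 at 8 h. For Ass1 the difference was -0.63 ± 0.16 and for Pou1f1 0.49 ± 0.18, and neither passed (adjusted p = 0.224 and 0.458).

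**Figure D4:**
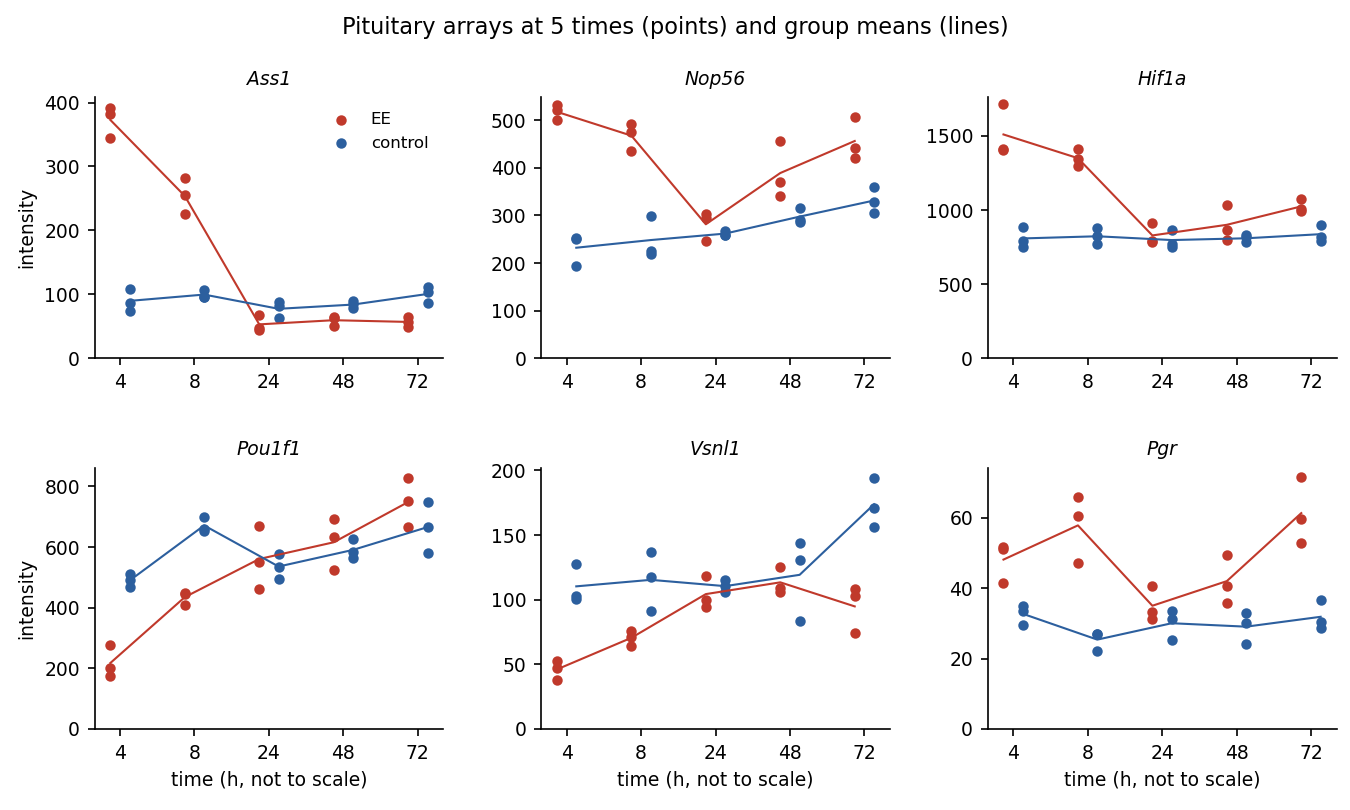
Intensity (y axes, from 0) on each pituitary array at 5 times (x axis, h, not to scale), EE in red left of control in blue, with lines through group means. Ass1, Nop56, Hif1a and Pou1f1 are apart from control at 4 and 8 h; Ass1 with EE lies at 49.1 to 65.3 against 86.2 to 112 at 72 h.

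The same treatment and time in uterus gave far more calls, with 58.1% of 6890 genes called (23.6% higher, 34.5% lower, 5 EE and 5 control arrays). The shares called in the tissues were not at equal power. Uterus had 5 arrays per group in a fit of 70 arrays, and pituitary 3 per group in a fit of 30. Of the 72 genes that rose in pituitary, 70 were tested in uterus: 45 were higher there, 11 lower and 14 did not pass. Of the 29 that fell, 18 were tested: 11 were lower, 0 higher and 7 did not pass. The EE effects in pituitary and uterus were compared directly in 1 fit of all arrays, where 33.8% of 6156 genes differed. Among the genes called in pituitary, 48 of 70 that rose and 10 of 18 that fell differed between tissues, and for 24 and 6 of them the pituitary effect was the one further in the called direction.

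Several genes moved in opposite directions. Camk2g was higher in pituitary (0.85) and lower in uterus (-0.54), a difference of 1.39 ± 0.15 (adjusted p = 2.4e-12), and Smad3 was at 0.70 and -0.39 (difference 1.10, adjusted p = 1.04e-10). Mtss1, an actin- and membrane-binding scaffold, was at 0.33 in pituitary and -1.07 in uterus (difference 1.40 ± 0.14), but its pituitary rise passed in 1 of the 6 fits that left out 1 array and in 7 of the 11 other settings. Tppp3 and Tmem50b rose in pituitary and did not pass in uterus (-0.14 and 0.07), and both differences passed (1.03 and 0.81). Ass1 was higher in both tissues, by 1.75 in pituitary and 0.69 in uterus (difference 1.06, adjusted p = 0.000513). Hif1a was at 0.87 in pituitary and 0.49 in uterus (difference 0.38, adjusted p = 0.00314).

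Other shared rises were smaller in pituitary. Inhbb was at 0.46 in pituitary and 3.44 in uterus (difference -2.98 ± 0.19), Gnl3 at 0.52 and 1.63 (-1.11 ± 0.12), and Nop56 at 1.07 and 1.74 (-0.67). Ciapin1, an iron-sulfur assembly protein, was at 0.37 and 1.36 (-0.99 ± 0.11), and Txnrd1, thioredoxin reductase, at 0.30 and 1.24 (-0.93 ± 0.11). The pituitary rise of Txnrd1 passed in 1 of the 6 fits that left out 1 array. All 27 ribosome biogenesis genes tested in uterus were higher there, where 23.6% of all genes were. Cited4 was at 1.14 and 1.87 (difference -0.73, adjusted p = 0.00327), while Litaf, at 1.14 and 1.35, and Tiparp, at 0.76 and 0.68, did not differ past the threshold (adjusted p = 0.403 and 0.747). Of the genes that did not pass in pituitary, Pgr was at 0.31 and 1.27 (-0.96 ± 0.17), Fos at -0.48 and 2.08 (-2.56 ± 0.40), Nr4a1 at -0.79 and 1.56 (-2.35 ± 0.32) and Egr1 at -0.27 and 1.31 (-1.59 ± 0.33).

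**Figure D5:**
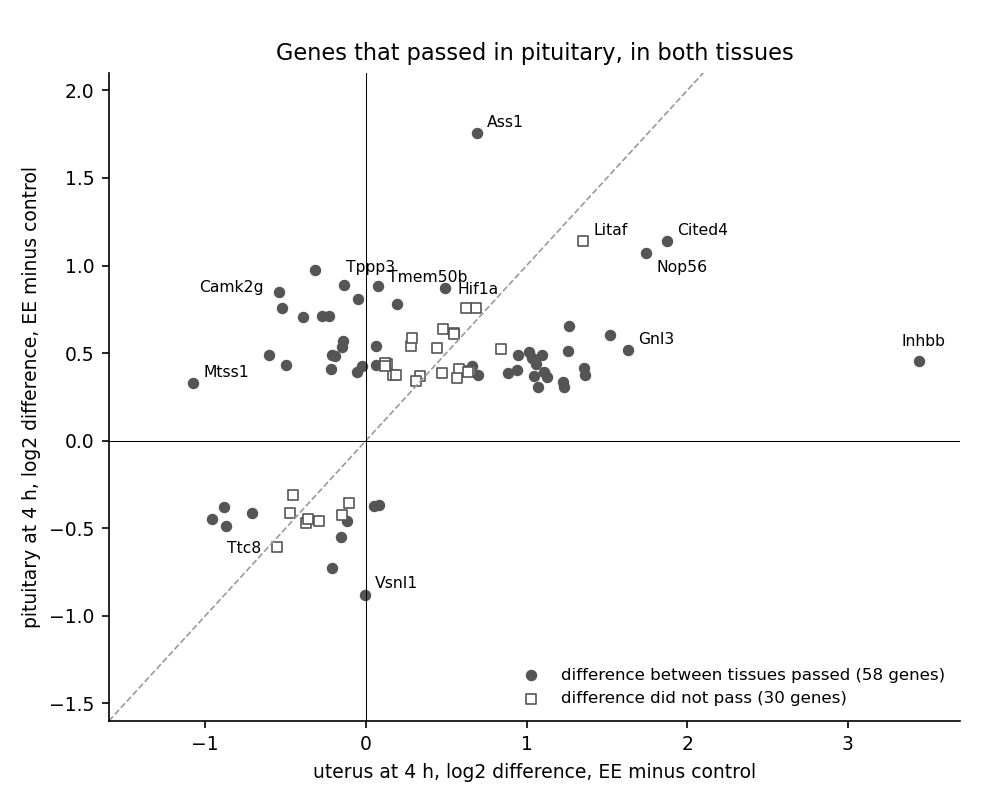
The 88 genes that passed in pituitary at 4 h and were tested in both tissues, placed by log2 difference, EE minus control, in uterus (x axis, 5 arrays each) and pituitary (y axis, 3 arrays each); filled circles mark the 58 genes whose effects differed between tissues, open squares the 30 that did not pass that test, and the dashed line equal effects. Inhbb lies far to the right (0.46 against 3.44), and Camk2g and Mtss1 at upper left.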

How the data were processed

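Per the labels' protocols, 5 µg of total RNA per sample was hybridised to Affymetrix RAE230A arrays. The deposited table holds linear intensity values per probe set, with many blank cells; how the authors summarised and scaled them, and why cells are blank, is not given in the sources used here. One probe set per gene was kept, the one with the highest mean over all 100 arrays, among probe sets of a single gene in the platform annotation (10411 genes from 12783 of 15923 probe sets). Values were taken as log2(intensity + 30.4), the offset being the 10th percentile over the deposited table; blanks were left out, and a gene was tested with at least 2 of 3 values in each pituitary group or 3 of 5 in each uterus group. Group means were fitted over the 30 pituitary arrays (10 groups, 20 residual degrees of freedom), variances were moderated with limma 3.58.1 in R 4.3.3, and p-values were two-sided and adjusted by Benjamini-Hochberg over all genes tested. EE against control in uterus came from the same kind of fit over the 70 uterus arrays. The tissue difference came from the same kind of fit over 100 arrays and 24 groups. The number of arrays limits the precision.

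The 12 largest rises and 12 largest falls among genes that passed were named, if the groups did not overlap and the higher group mean lay above the median pituitary intensity, with up to 4 members of each of 40 gene lists and 15 genes always named. The members and lists were chosen with earlier results of these data known. Alternatives changed the offset, scaling, blank and dim-gene filters, probe set choice, variance model and arrays in the fit, and left out each array in turn.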

Additional observations from a re-analysis of the deposited data

Results flagged for a closer look

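The effect of EE at 4 h differed between pituitary and uterus for 10 named genes by a direct test of the difference, pituitary minus uterus on the log2 scale. It was -2.98 for Inhbb, 1.40 for Mtss1, 1.39 for Camk2g, -1.11 for Gnl3, -0.99 for Ciapin1 and -0.93 for Txnrd1, all among genes that passed in pituitary. It was -0.96 for Pgr, -2.56 for Fos, -1.59 for Egr1 and -2.35 for Nr4a1, which did not pass in pituitary on their own. All 10 differences passed in every alternative that gave a value for them.

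The effect in pituitary differed between 8 h and 4 h for Dapk1 (-0.67) and Scn9a (0.64), 8 h minus 4 h. Dapk1 was higher and Scn9a lower with EE at 4 h, and neither passed at 8 h. With 1 of the 12 arrays left out, Dapk1 lost this call in 7 of 12 cases and Scn9a in 10 of 12, and both lost it with only the compared groups in the fit (adjusted p = 0.21).

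Probe sets that the annotation ties to no gene or to several genes stood outside the comparison of genes. Of 1566 of them tested, 24 passed at 4 h in pituitary, 18 higher and 6 lower with EE. This share is similar to that among genes, where 101 of 6784 passed (1.49%). The largest of these differences was in a probe set with no gene, with intensities of 1138, 1226 and 1138 in EE pituitaries, against 397, 419 and 417 in control pituitaries (1.44 ± 0.16, SE, adjusted p = 1.14e-06, limma).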

How the results depend on the processing

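Leaving out 1 array at a time gave 54 to 103 genes called at 4 h in pituitary (101 with all arrays), 38 to 71 higher, 16 to 32 lower and 3 to 6 higher ribosome biogenesis genes. It gave 1767 to 2052 genes for the tissue difference (2082) and 0 to 9 for the time difference (3). With only the compared groups in the fit, the counts were 26 passed, 21 higher, 5 lower and 1 ribosome biogenesis gene, and 0 for the time difference, where fewer arrays estimate the spread. With dim genes left out, which tests fewer genes, 17 were lower, 1149 differed between tissues and 1 between times. With blanks set to the 10th percentile, 5 differed between times; the cause was not tested. Offset, scaling, probe set choice and variance trend gave 89 to 103 genes called, and blanks filled 106. The share of called genes that were higher was 71.3%, 70.1% with arrays centred on their medians and 68.5% with quantile normalization. Of 770 values of 46 named genes at 4 h, 703 kept direction and call, 61 lost the call, 5 turned sign and 1 came to 0, these 6 all in genes that did not pass: Prl -0.075 and Gh1 0 with quantile normalization, and with 1 array left out Prl (-0.11 to 0.27, turned without EE replicate 21), Fshb (-0.84 to 0.48, control replicate 17), Tshb (-0.16 to 0.0080, control replicate 18) and Gnrhr (-0.41 to 0.15, EE replicate 23). The 703 include values of genes that did not pass with all arrays and so had no call to lose. Such a gene counts as kept wherever it again did not pass. No paired analysis was possible at 4 h or between 4 and 8 h because those groups share no replicate number. Pituitary and uterus share numbers, but the check does not show that numbers pair the arrays. The correlation r was -0.08 to 0.11 for the 6 pairs and over 0.1 for 2 of them. Although 4 of 6 arrays correlated best with their own number, how many would do so without pairing was not tested. Whether numbers pair the arrays is thus not settled. A replicate block over those 12 arrays gave 1298 genes, against 1469 without the block. The 3 arrays per group limit what can be called, and blank cells leave Esr1, Gal and Pomc untested.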

Other observations

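Dimmer or unlisted genes gave further values, all chosen after they were seen. Pfkfb3, which makes the activator of phosphofructokinase in glycolysis, read 70.1, 59.5 and 66.7 in EE pituitaries, against 23 and 27.7 on the 2 control arrays with a value (0.78 ± 0.11, adjusted p = 9.88e-05, limma), while its dimmer second probe set did not pass (0.20, adjusted p = 0.607). Of 14 genes in the glycolysis list 0 passed (1 at an unadjusted p under 0.05, against 9.85% of all genes tested). Slc7a7, a subunit of a cationic amino acid transporter, read 138, 145 and 156 with EE, against 73.3, 70.3 and 89.7 in controls (0.71 ± 0.11, adjusted p = 0.000328). Tfrc, the transferrin receptor, read 161, 233 and 203 with EE, against 136, 117 and 107 in controls (0.60 ± 0.12, adjusted p = 0.00569), and its second probe set also passed (0.63 ± 0.12, adjusted p = 0.00374). With 1 array left out, Slc7a7 passed in 6 of 6 fits, Tfrc in 5 and Pfkfb3 in 4. Among genes that fell, Rprm, reprimo, read 33.6, 37.1 and 34.5 with EE, against 111, 76.3 and 54.0 in controls (-0.73 ± 0.19, adjusted p = 0.0445), and passed in 1 of the 6 fits that left out 1 array and in 6 of the 11 other settings. In all, 14 other probe sets of 13 called genes were tested: 3 passed in the same direction, 11 pointed the same way without passing and 0 pointed the opposite way.

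Casr, the calcium-sensing receptor, read 65.8, 49.5 and 64.5 on the EE arrays and was blank on the control arrays; at the other times it had values on 5 of 12 EE arrays and 1 of 12 control arrays. Pdk4, a kinase that shuts down pyruvate dehydrogenase, read 53.9, 77 and 48 on the EE arrays and was blank on the control arrays, with values on 1 of 12 EE arrays and 2 of 12 control arrays of the other times. Eef2k, the kinase that slows translation elongation, was blank on the EE arrays and read 89.1, 94.8 and 95.8 in controls, with values on 2 of 12 EE arrays and 9 of 12 control arrays of the other times.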
